A study of Capra hircus with 6 samples.

Results

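The 9 genes described here encode the TGF-β ligands (TGFB1, TGFB2, TGFB3), the latent TGF-β binding proteins (LTBP1, LTBP2, LTBP3, LTBP4), the surface carrier LRRC32, and the TGF-β-induced matrix protein TGFBI. They were chosen by gene symbol, and all 9 were found among the 15944 genes of the count table. The RNA came from secondary hair follicle dermal papilla cells (SHF-DPCs) of wild-type Capra hircus, grown as primary cultures from skin. The control group (3 libraries) was kept without all-trans retinoic acid (ATRA), a vitamin A derivative that activates nuclear retinoic acid receptors, and the ATRA-treated group (3 libraries) received it at 100 µM for 24 h. The cells came from 3 animals, adult Albas cashmere goats aged 3 years, and the study used them after several passages in serum-containing medium. The labels do not say which library came from which animal, so the p-values measure the spread between these libraries. The question was how ATRA changed the genes that make, hold, and release TGF-β, of which TGFB2 was the one the study followed further.

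TGF-β is made as a precursor that convertases cut into the mature dimer and its propeptide. The propeptide stays wrapped around the dimer and keeps it latent, and an LTBP joined to the propeptide by disulfide bonds ties the complex to fibrillin and fibronectin fibres in the matrix. LTBP1 and LTBP3 bind all isoforms of the propeptide, LTBP4 binds that of TGF-β1 weakly, and LTBP2 binds fibrillin but no propeptide. LRRC32 (also called GARP) presents latent TGF-β on the cell surface. Integrins, thrombospondin-1, and proteases can release the active ligand. In the hair follicle, TGF-β1 and TGF-β2 are known for promoting regression of the growing follicle.

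Each library held 35532339 to 38012771 counts, which were scaled by edgeR's TMM method and are given as normalized CPM, the count relative to the scaled library total. Retinoid-responsive genes followed the labels: 5 of 6 tested genes of this list were higher with ATRA, beside 40.9% of all genes tested. DHRS3 led (log₂FC 7.02), and STRA6 (log₂FC 0.68) did not pass. CRABP2 rose slightly (log₂FC 0.22), and its call was lost with the t.test function that the study used (adjusted p = 0.0842). CYP26A1 was not tested, with 0 counts in each control library and 0, 1, and 3 with ATRA. The study identified its cells by immunofluorescence, in which they were positive for α-SMA and CD133. Such staining detects protein, which transcript counts do not measure. ACTA2, the gene of α-SMA, had 6206 to 7098 CPM in the control libraries, and PROM1, the gene of CD133, had 1 count or fewer in every library. Of the other dermal papilla markers, VCAN (1641 ± 63.6 CPM), BMP4 (406 ± 18.7), NCAM1 (80.3 ± 3.27), and LEF1 (16.1 ± 1.63, SD, n = 3 each) were present in the control group, while ALPL and CORIN had 1 count or fewer in every library and SOX2 had 0 to 16. The summed level of the 15 dermal papilla and fibroblast markers was 55170 to 57980 CPM in the control group and 2542 to 2640 CPM with ATRA. COL1A1 (27440 CPM in the control group), VIM (19160), and ACTA2 (6582) made up most of the control sum. Of the 11 tested genes of this list 9 were lower, beside 38.7% of all genes tested. TWIST1 (log₂FC -0.14) and SOX18 (0.47) were not called. With libraries divided by their size alone, 7 were called lower and 1 higher. Dividing by library size alone moved the log₂FC of PDGFRB from -0.44 to 0.04 and that of LEF1 from -0.54 to -0.06. TWIST1 turned to a log₂FC of 0.34 and was then called higher (adjusted p = 0.000156), while DESeq2 called it lower (adjusted p = 0.0294). The summed level of the leukocyte markers in the table (6 of 8 listed) was 11.7 to 15.6 CPM in the control group and 49.5 to 53.9 CPM with ATRA, and that of the endothelial markers (5 of 6) was 0.903 to 1.24 and 6.19 to 9.16 CPM. These lists were not uniform. PECAM1, an endothelial and platelet adhesion gene, went from 0 counts in each control library to 242, 340, and 206 with ATRA. TEK was also higher, but was not called without Control replicate 3 (adjusted p = 0.0729) or without ATRA replicate 1 (adjusted p = 0.0538). In contrast, KDR had 5 to 10 counts per control library and 0 to 2 with ATRA. The endothelial cadherin gene CDH5 had 1 count or fewer in every library. CD14 rose from 6.91 ± 1.57 to 31.3 ± 0.835 CPM and CD68 from 4.14 ± 1.54 to 11.0 ± 0.701 CPM (SD, n = 3 each). The CD68 call was lost with the t.test function (adjusted p = 0.0521). The macrophage gene AIF1 had 1 count or fewer in every library. The corresponding ranges were 3.11 to 4.98 and 5.37 to 5.97 CPM for keratinocyte (6 of 7), 16.1 to 17.6 and 32.2 to 39.0 CPM for melanocyte (2 of 5), and 0.989 to 2.09 and 2.56 to 3.29 CPM for adipocyte markers (3 of 3). Here too genes of a list differed. KRT10 rose, a call lost with the t.test function (adjusted p = 0.0761). In contrast, KRT14 had 20, 14, and 10 counts in the control libraries and 3, 0, and 0 with ATRA. MITF rose from 13.1 to 32.7 CPM on average, whereas PMEL fell from 4.01 to 2.15 CPM. The part of these shifts in the results that follow was not tested. In such bulk RNA, fewer cells of a type and less RNA per cell cannot be told apart.

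TGFB1 and TGFB2 transcripts rose with ATRA while TGFB3 transcripts fell. TGFB1, the broadly expressed isoform linked to growth inhibition and fibrosis, had 69.8, 59.3, and 67.8 CPM in the control libraries and 303, 276, and 277 CPM in the ATRA libraries. The groups were far apart, and the fitted change was 4.35-fold (log₂FC 2.12, standard error 0.0682, adjusted p = 1.80e-15). TGFB2, the isoform tied to follicle regression, had 32.6, 34.4, and 37.1 CPM without ATRA and 86.7, 103, and 94.2 CPM with it. Its increase was 2.73-fold (log₂FC 1.45, standard error 0.0751, adjusted p = 2.50e-12), again with every ATRA library above every control library. The study's own RNA-seq analysis reported a larger log₂FC for TGFB2, and its qRT-PCR also showed a rise. TGFB3, an isoform known from palate fusion and scar-poor wound repair, had 25.5, 21.8, and 22.9 CPM in the control libraries. With ATRA it had 7.91, 8.53, and 6.86 CPM, or 284 to 376 counts per library. This was a 3.01-fold decrease (log₂FC -1.59, standard error 0.102, adjusted p = 6.00e-11) without overlap between the groups. The coefficient of variation within a group lay between 5.43% and 10.8% for the ligand genes, small beside these changes.

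**Figure D1:**
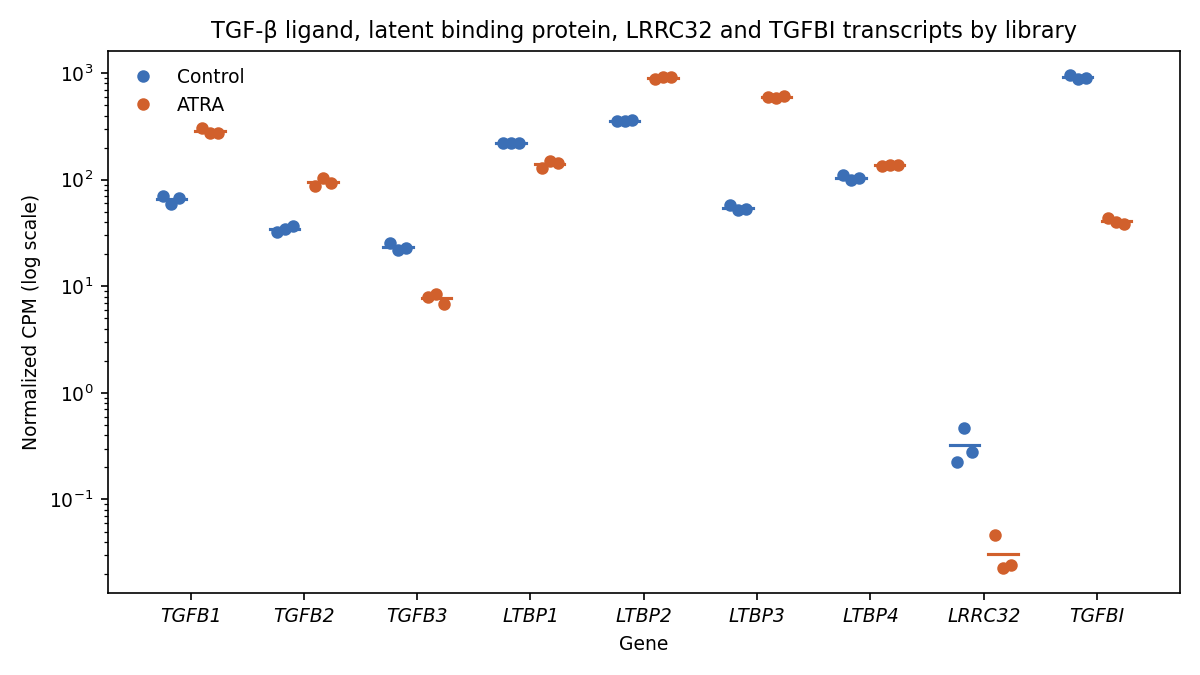
Normalized CPM (log scale) of each gene in the 3 control (blue) and 3 ATRA (orange) libraries, with a point per library and a line at the group mean. TGFB1, TGFB2, LTBP2, LTBP3, and LTBP4 were higher in all ATRA libraries, TGFB3, LTBP1, and TGFBI were lower, and LRRC32 lay below 1 CPM throughout.

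The make-up of the ligand transcripts within a library does not depend on how libraries are scaled against each other. TGFB1 took 54.6%, 51.3%, and 53.1% of the reads on the ligand genes in the control libraries and 76.2%, 71.2%, and 73.3% in the ATRA libraries. The TGFB3 share dropped from 18.9% ± 1.01 to 2.0% ± 0.193 (SD, n = 3 each). The share of TGFB2, in contrast, was 25.5%, 29.8%, and 29.0% without ATRA and 21.8%, 26.6%, and 24.9% with it. These shares overlapped (28.1% ± 2.27 and 24.4% ± 2.45, SD, n = 3 each, exact permutation test, two-sided, p = 0.2), and 3 libraries a group are too few for this test to reach 0.05. The difference was -3.67 percentage points, and between -4.96 and -2.34 with single libraries left out, the latter without ATRA replicate 1. For TGFB1 and TGFB3 the shares did not overlap (exact permutation test, p = 0.1, the smallest that 3 libraries against 3 allow). Within libraries, the ratio of TGFB1 to TGFB2 reads grew by 1.60-fold, that of TGFB1 to TGFB3 by 13.1-fold, and that of TGFB2 to TGFB3 by 8.22-fold. Over all 16 shares and ratios computed, the smallest adjusted p was 0.107. Shares count reads, which grow with transcript length, so they do not rank the isoforms by number of molecules.

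Among the binding proteins, LTBP3 stood out with the largest change of the family, LTBP2 and LTBP4 also rose, and LTBP1 fell. LTBP3, which is needed for bone and tooth growth and carries latent TGF-β, had 57.9, 51.7, and 53.5 CPM in the control libraries and 602, 587, and 606 CPM in the ATRA libraries. The control values were far below the ATRA values, an 11.0-fold difference (log₂FC 3.46, standard error 0.0635, adjusted p = 5.54e-19). Of all genes tested, 98.0% had a log₂FC as low or lower. How reads in overlapping annotation were assigned is not given in the sources used here, which leaves the level of LTBP3 uncertain by any such reads.

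LTBP2, the fibrillin-binding member that carries no TGF-β, had 353, 353, and 367 CPM without ATRA and 874, 921, and 918 CPM with ATRA. It rose 2.53-fold (log₂FC 1.34, standard error 0.0564, adjusted p = 1.08e-13), and its coefficient of variation was 2.30% without and 2.86% with ATRA. LTBP4, which also guides elastic fibre assembly, rose by a small amount, from 104 ± 4.88 to 137 ± 1.62 CPM (SD, n = 3 each). Its values were 110, 101, and 103 CPM against 136, 138, and 139 CPM, so the groups did not overlap despite a change of 1.32-fold (log₂FC 0.40, standard error 0.0567, adjusted p = 4.25e-06). LTBP1, a main carrier of latent TGF-β1 in fibroblast matrix, had 219, 220, and 224 CPM in the control libraries and 130, 150, and 144 CPM with ATRA. It fell 1.56-fold (log₂FC -0.64, standard error 0.0596, adjusted p = 1.34e-08), and this fall shrank to a log₂FC of -0.16 (adjusted p = 0.0193) when libraries were divided by their size alone.

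Within the reads on the LTBP genes, LTBP3 and LTBP1 changed places. LTBP1 took 29.6%, 30.4%, and 29.9% in the control libraries and 7.47%, 8.37%, and 7.99% in the ATRA libraries. LTBP3 went from 7.37% ± 0.394 to 33.6% ± 0.95 (SD, n = 3 each), a gain of 26.2 percentage points. The part of LTBP2 moved by 2.26 percentage points, from 48.5% ± 0.736 to 50.8% ± 0.553 (SD, n = 3 each), with no overlap. LTBP4 fell from 14.2% ± 0.603 to 7.71% ± 0.0583 of the LTBP reads (SD, n = 3 each) while its CPM rose, since the family as a whole gained reads. Each of these shares had the smallest possible p (exact permutation test, p = 0.1). The ratio of LTBP3 to LTBP1 reads rose by 17.2-fold, and that of LTBP3 to TGFB1 reads by 2.53-fold.

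**Figure D2:**
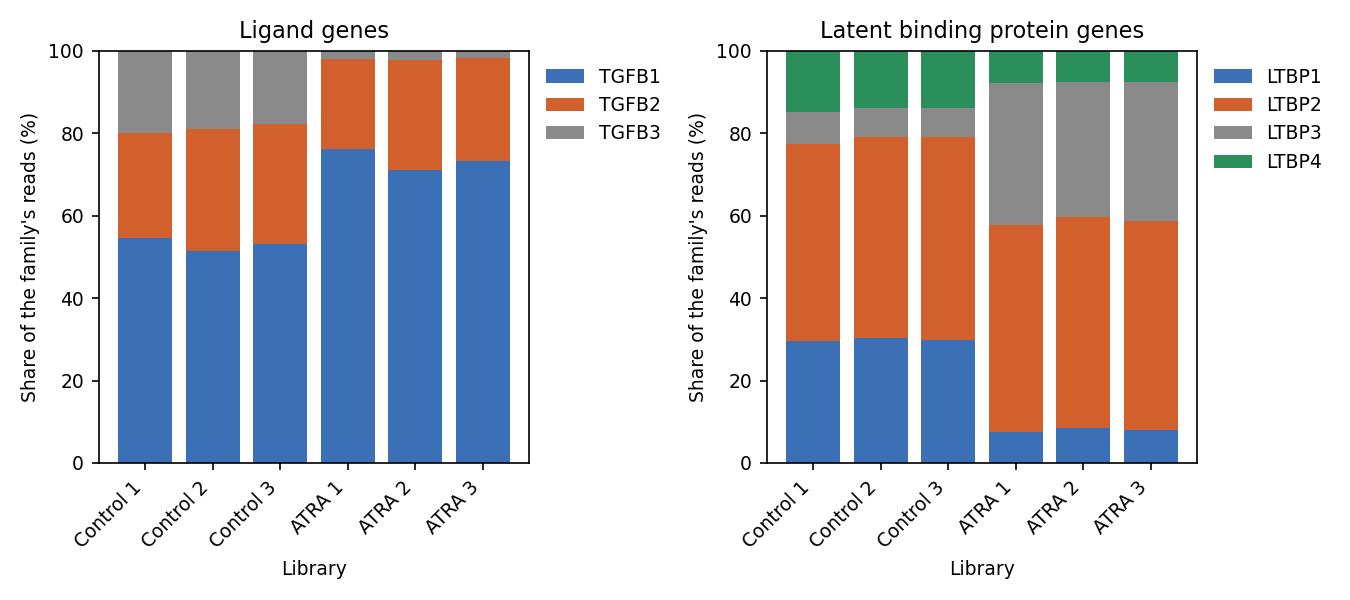
Share of reads (%) taken by each gene among the TGFB1, TGFB2, and TGFB3 reads (left) and among the LTBP1 to LTBP4 reads (right), with a stacked bar per library. TGFB3 shrank from 18.9% to 2.0% on average and LTBP3 grew from 7.37% to 33.6%, while TGFB2 and LTBP2 moved by -3.67 and 2.26 percentage points.

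Whether binding proteins gained or lost ground on their ligands depended on how the genes were combined. The summed LTBP reads per summed ligand read had a log2 ratio of 2.53, 2.65, and 2.55 in the control libraries and 2.13, 2.21, and 2.26 with ATRA, a fall of 0.377. Averaging log2 counts over the genes of each family, which cancels transcript length, turned this to a rise of 0.479 (both exact permutation test, p = 0.1). The sum is carried by LTBP2 and TGFB1, whereas the average gives TGFB3 the same weight as TGFB1. No direction is therefore given for the families as wholes.

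LRRC32 was close to the limit of detection. Its counts were 7, 15, and 9 in the control libraries and 2, 1, and 1 in the ATRA libraries, too few for the expression filter. The groups did not overlap, and the totals of 31 against 4 counts, set against the scaled library totals, gave a ratio of 10.4 (exact 95% interval 3.69 to 40.7, counting error only) in favour of the control group. With the filter removed, edgeR gave it a log₂FC of -3.26 (adjusted p = 0.000153). LRRC32 is best known from regulatory T cells, platelets, and endothelium. Here FOXP3, the regulator of those T cells, had 5 to 12 counts per control library and 12 to 25 per ATRA library and was not called (adjusted p = 0.218). PECAM1 of endothelium and platelets had 0 counts in each control library and at least 206 in each ATRA library. The platelet integrin gene ITGA2B rose from 2.36 ± 0.147 to 8.35 ± 1.09 CPM (SD, n = 3 each). Of other endothelial genes, TEK rose, a call lost when some single libraries were left out, and VWF was not called. KDR, not tested, had 5, 6, and 10 counts in the control libraries and 2, 1, and 0 with ATRA. NRROS, the related carrier of macrophages, had at most 1 count in any library.

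TGFBI, a secreted integrin-binding protein first found as a TGF-β-induced transcript, fell the most of the tested members. It had 953, 883, and 907 CPM in the control libraries and 43.5, 39.9, and 38.7 CPM in the ATRA libraries. The decrease was 22.5-fold (log₂FC -4.49, standard error 0.0699, adjusted p = 6.06e-20), and 2.21% of tested genes had a log₂FC as low or lower. TGFBI reads outnumbered TGFB1 reads in each control library and were outnumbered by them in each ATRA library. The log2 ratio of TGFBI to TGFB1 reads was 3.77, 3.90, and 3.74 in the control libraries and -2.80, -2.79, and -2.84 in the ATRA libraries, a 98.0-fold change.

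All 8 members that passed the filter were called at an adjusted p under 0.05, 5 higher and 3 lower, with every control library apart from every ATRA library. These counts carry little by themselves, since 79.7% of the 12588 genes tested were called (40.9% higher and 38.7% lower) and 80.1% had groups that did not overlap. The study's threshold of |log₂FC| above 1 was passed by 6 of the 8, 4 higher and 2 lower, against 31.0% of all genes tested (13.7% higher and 17.3% lower). Their median log₂FC was 0.87, beside 0.04 over all genes tested. Dividing by library size alone moved the latter to 0.52 and shifted each member upward, with no sign turned.

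**Figure D3:**
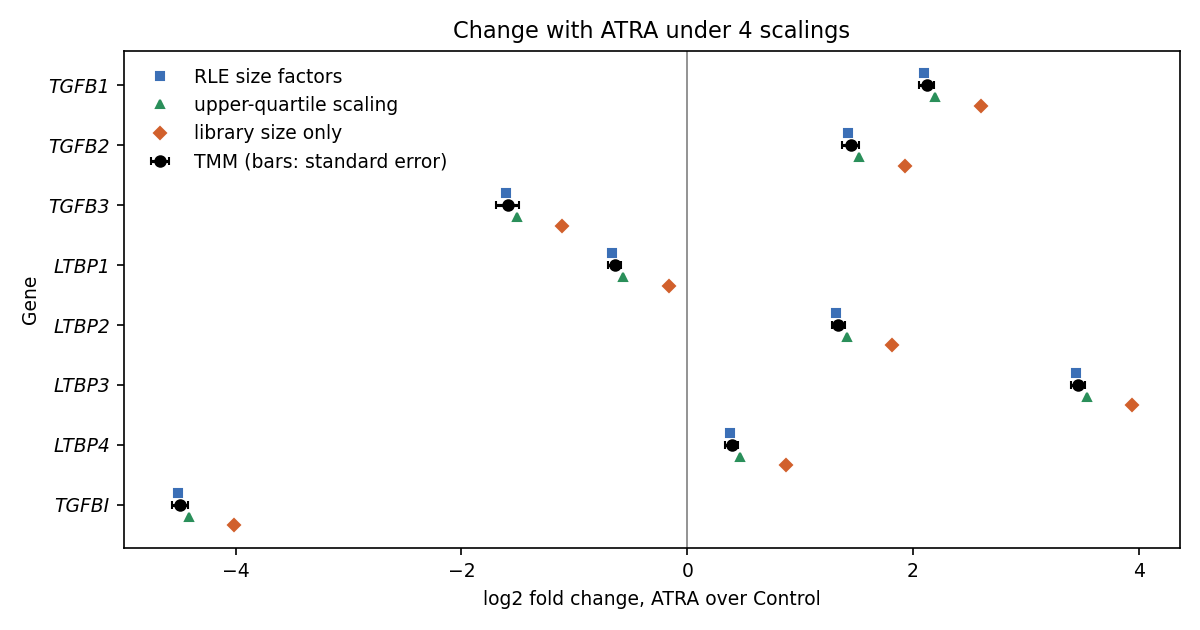
log₂FC of the 8 tested genes, ATRA over control, with TMM scaling (black, bars are standard errors) and 3 other scalings. Each gene stayed on its side of 0, and LTBP1 came nearest to it at -0.16 with library size only.

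The partners that cut, tether, and release latent TGF-β were examined as gene lists. Over all genes tested, 40.9% were called higher and 38.7% lower, shares that stand beside each list count below. Of the 4 convertases, which cleave the precursor, 2 were higher and 2 lower. PCSK6, which stays bound to the matrix, fell from 158 ± 2.86 to 8.83 ± 0.654 CPM (SD, n = 3 each, log₂FC -4.17, standard error 0.0729). FURIN, the main TGF-β1 convertase, changed little, with 133 ± 6.09 and 106 ± 0.625 CPM (SD, n = 3 each). Its log₂FC of -0.33 turned to 0.14 with library size only. PCSK7 rose 1.60-fold, and PCSK5 rose 1.74-fold at 41 to 156 counts per library. The PCSK5 call was lost with the t.test function (adjusted p = 0.0655).

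Most genes of the fibres to which LTBPs attach fell. Of 11 tested anchor genes, 9 fell and 1 rose, with a median log₂FC of -2.32. FBN1, the fibrillin to which LTBP1, LTBP2, and LTBP4 bind, fell 3.58-fold from 4113 ± 179 to 1148 ± 126 CPM (SD, n = 3 each). FN1, the fibronectin on which LTBP1 is first laid down, fell 3.75-fold from 16700 ± 594 to 4451 ± 384 CPM. The microfibril gene MFAP5 (log₂FC -4.89), the elastic fibre genes FBLN5 (-4.17) and ELN (-2.76), and the TGF-β precursor inhibitor EMILIN1 (-2.32) also fell. Relative to FBN1, LTBP2 reads rose 9.09-fold within libraries. The member that rose was TGM2, the transglutaminase that cross-links LTBP1 to matrix and a known retinoid-induced gene, from 10, 3, and 4 counts to 185, 169, and 152 (log₂FC 4.44, standard error 0.308). ADAMTSL2 (log₂FC 0.30, adjusted p = 0.443) did not pass, and ADAMTSL3 had 3 counts or fewer in each library.

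Activators of the latent complex were mostly lower as well, 11 of 13 tested, with 2 higher and a median log₂FC of -0.95. With library size only, 9 were called lower and 3 higher. THBS1, the gene of thrombospondin-1, which can free TGF-β from its propeptide, fell 73.1-fold from 27110 ± 1202 to 371 ± 52.4 CPM (SD, n = 3 each). The integrin αv gene ITGAV fell 3.50-fold, from 377, 424, and 414 CPM to 110, 129, and 109 CPM. Its β partners did not move alike. ITGB3 rose 3.05-fold, from 101 ± 2.02 to 308 ± 23.6 CPM (SD, n = 3 each), and ITGB1 fell 3.11-fold. ITGB8, whose integrin releases TGF-β1 and TGF-β3, fell 1.57-fold (log₂FC -0.65), but had a log₂FC of -0.17 (adjusted p = 0.199) with library size only and was not called with the t.test function (adjusted p = 0.0859). ITGB5 had a log₂FC of -0.27 that turned to 0.21 with library size only, and ITGB6 had at most 2 counts in any library. Of the proteases, PLAT (log₂FC -4.39), PLAU (-1.93), HTRA1 (-1.83), and BMP1 (-0.95) fell, while MMP9 rose at a low level (2 to 9 counts per control library and 37 to 48 per ATRA library). PLG was not analysed here.

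All 4 proteoglycans that bind TGF-β fell. ASPN (asporin, log₂FC -6.07) fell the most, followed by FMOD (fibromodulin, -2.82), DCN (decorin, -2.76), and BGN (biglycan, -1.55). Of 4 tested receptor genes 3 fell, among them the coreceptor gene TGFBR3 (8.06-fold lower) and the type II receptor gene TGFBR2 (412 ± 6.03 to 206 ± 11.0 CPM, SD, n = 3 each). ENG, also lower (log₂FC -0.51), had -0.0269 with library size only (adjusted p = 0.693). The type I receptor gene TGFBR1 rose slightly (log₂FC 0.29, adjusted p = 0.00752) and was not called without Control replicate 1 (0.21, adjusted p = 0.0566) or with the t.test function (adjusted p = 0.161). ACVRL1 had at most 9 counts in any library.

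Most transcripts commonly used to read out TGF-β activity fell alongside TGFBI. Of 11 genes, 9 were lower and 1 higher, with a median log₂FC of -3.73. CCN2 (listed as CTGF), the gene of a matricellular growth factor, fell 9.76-fold, and PMEPA1, a feedback inhibitor, fell 4.66-fold. SKIL, the gene of a Smad corepressor that TGF-β induces, rose 1.52-fold from 20.4 ± 1.43 to 31.0 ± 5.06 CPM (SD, n = 3 each). SMAD7, the inhibitory Smad gene, had a log₂FC of -0.16 (adjusted p = 0.129), which turned to 0.32 with library size only. ACTA2 was also lower (log₂FC -9.62). It has near-identical actin paralogs, and how reads that match several genes were counted is not given. ACTA2 and COL1A1 also belong to the dermal papilla and fibroblast list. The study's western blots showed more TGF-β2 protein and more Smad2/3 phosphorylation with ATRA. The receptor inhibitor LY2109761 lowered that phosphorylation and partly reversed the effects of ATRA on the cells. Transcript levels do not measure these, and a change in TGF-β activity was not tested here.

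**Figure D4:**
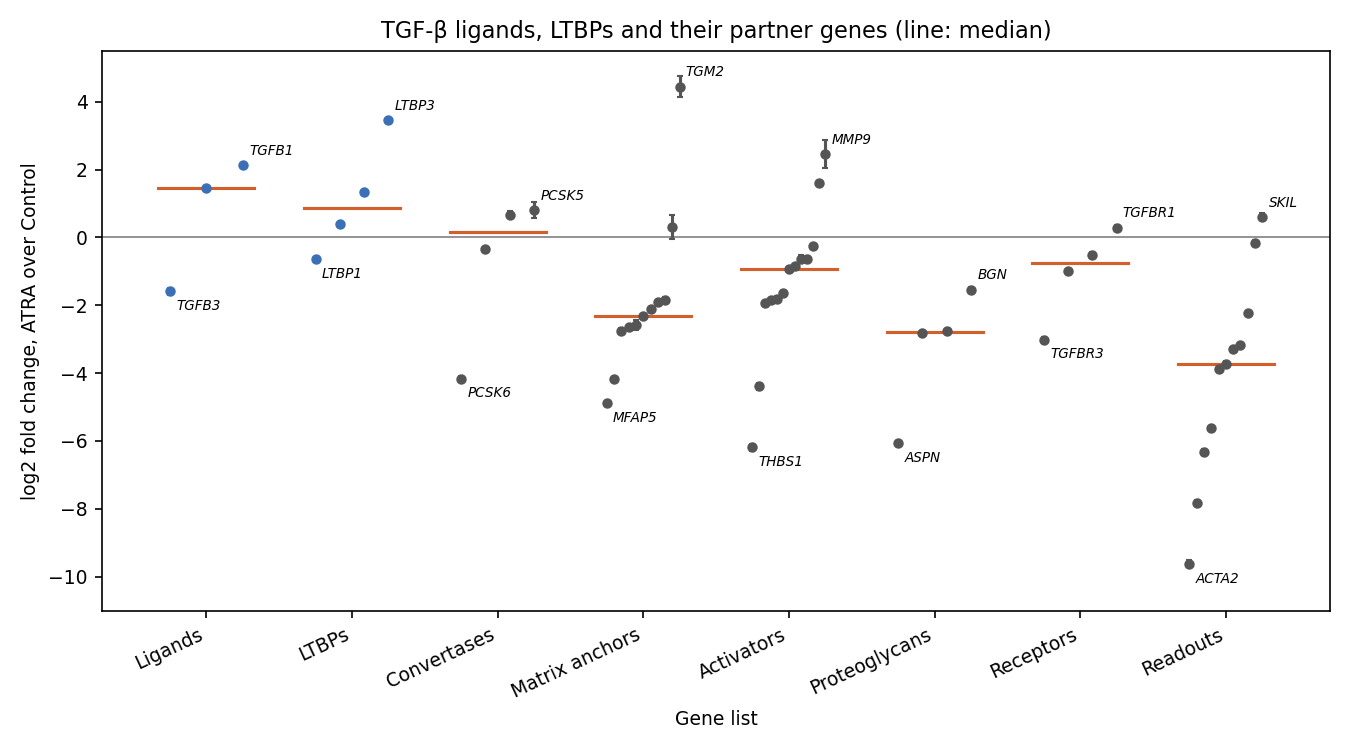
log₂FC (ATRA over control, with standard errors, often smaller than the point) of the tested TGF-β ligand and LTBP genes (blue) and of their partner lists (grey), with an orange line at each list's median and the lowest and highest gene named. The medians were 1.45 for ligands and 0.87 for LTBPs, and -2.32, -0.95, -2.79, and -3.73 for anchors, activators, proteoglycans, and readouts.

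Genes with the profile most like each ligand across the 6 libraries were sought by the root mean square difference of log2 CPM deviations. With only 2 conditions, likeness mainly reflects an equal log₂FC. For TGFB1 they were RFX2 (0.0333), ID2 (0.0609), and TESK2 (0.0680), and for TGFB2 they were AK4 (0.0372), CCNG2 (0.0405), and DSEL (0.0443). TGFB3 was nearest to CCNB3 (0.0662), MAMLD1 (0.0700), and HDAC6 (0.0767). LTBP3 was nearest to HMOX1 (0.0439), the heme oxygenase gene, VDR (0.0481), the vitamin D receptor gene, and RHBDF2 (0.0607).

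In the deposited GO annotation, all 4 LTBP genes carried calcium ion binding, a property of their EGF-like repeats, as did 3.40% of annotated genes. The term TGF-β binding was on 13 genes of the table, of which 5 are members (TGFB3, LTBP1, LTBP3, LTBP4, LRRC32). Of the other 8, a list looked up after the results were seen, 5 were higher and 3 lower. Over all genes tested, these shares were 40.9% and 38.7%. The higher genes were VASN, whose secreted product traps TGF-β (150 ± 2.74 to 368 ± 6.68 CPM, SD, n = 3 each, log₂FC 1.29), WFIKKN1 (log₂FC 1.30), WFIKKN2 (0 counts in each control library and 13, 27, and 16 with ATRA), TGFBR1, and ACVR1 (log₂FC 0.22). The lower genes were THBS1, TWSG1 (log₂FC -0.56), and HYAL2 (log₂FC -0.47), of which TWSG1 had -0.0827 and HYAL2 0.0051 with library size only. WFIKKN2 passed the expression filter only through its ATRA libraries. Response to retinoic acid was annotated to TGFB2 alone among the 9. The KEGG TGF-beta signaling pathway held 4 members (TGFB1, TGFB2, TGFB3, LTBP1).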

How the data were processed

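Poly(A) RNA of 3 control and 3 ATRA-treated SHF-DPC cultures was sequenced, and the authors deposited raw read counts per gene, which are whole numbers without normalization. The study's methods name fastp and TrimGalore for read cleaning, and the submitters' processing notes name HISAT2, featureCounts, and DESeq2. The genome build, annotation, strand setting, and treatment of shared reads are not given in the sources used here, so no coordinates, lengths, or sequences are given and levels of different genes were not ranked. The labels place all libraries in batch 1.

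Genes passing edgeR's filterByExpr (12588 of 15944) entered a robust two-sided quasi-likelihood fit in edgeR over 6 libraries, with TMM scaling, no covariate, and Benjamini-Hochberg adjustment over all genes tested. A call is an adjusted p under 0.05. Normalized CPM used TMM-scaled totals of tested genes. The prior count was 0.125, and the standard error of a log₂FC is |log₂FC| over the square root of F. Shares and ratios were tested by exact permutation. The ratio of summed LTBP to summed ligand reads was planned per kb of coding length, but counts were used because no lengths were at hand. The ratios of pairs of genes were added after seeing the data. The members and lists were chosen with earlier results of these data known. Genes that could be named were all members, all list genes, and the 3 genes nearest to TGFB1, TGFB2, TGFB3, and LTBP3 with a mean CPM of at least 1 and no LOC name. VASN, WFIKKN1, WFIKKN2, ACVR1, TWSG1, and HYAL2 were named after their values were seen. Some genes of the lists are not reported here.

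No library pair matched within sampling noise (chi-square per degree of freedom 5.16 to 19.2). The alternatives tried were DESeq2, the study's choice of the t.test function (here on log2 CPM with a pseudocount of 1), 3 other scalings, 2 other filters, a prior count of 2, the replicate block, and each library left out. The test was tested on simulated data. Versions were R 4.3.3, edgeR 4.0.16, DESeq2 1.42.0, Python 3.11.15, scipy 1.17.1, and matplotlib 3.10.9.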

Additional observations from a re-analysis of the deposited data

How the results depend on the processing

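For the 8 tested members, each of the 15 alternatives kept the direction and the call, with a largest adjusted p of 0.0193. The log₂FC ranged from 2.05 to 2.60 for TGFB1, 1.37 to 1.93 for TGFB2, -1.67 to -1.11 for TGFB3, -0.70 to -0.16 for LTBP1, 1.32 to 1.82 for LTBP2, 3.42 to 3.94 for LTBP3, 0.36 to 0.87 for LTBP4, and -4.55 to -4.01 for TGFBI. Over all genes, 5151 were called higher and 4877 lower; library size only gave 7921 and 2861, and |log₂FC| above 1 with an unadjusted p under 0.05 gave 1730 and 2174. Leaving out each library gave 4914 to 5182 higher and 4734 to 5026 lower. The fall of 0.377 in the log2 ratio of summed LTBP to ligand reads became a rise of 0.479 when log2 counts were averaged over genes, an alternative added after seeing the data, which weights the genes equally by construction.

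Libraries that share a number from 1 to 3 showed no clear pairing. Deviations from the group means correlated at 0.299, -0.029, and -0.236 between same-numbered libraries across 9030 genes, and not every library correlated best with its own number. The highest correlation was 0.363, between Control replicate 3 and ATRA replicate 2. A pairing by animal under other numbers was not tested. Leaving out each library gave a difference in the TGFB2 share of -4.96 to -2.34 percentage points, the smallest without ATRA replicate 1. With the replicate block, which joined only libraries of the same number, all 8 members kept their calls. The replicate block left the difference in share of TGFB1 at 20.6 percentage points and of TGFB2 at -3.67. Shares per kb of coding length were not run for want of lengths. Depth limits LRRC32, whose ATRA libraries held 1 or 2 counts.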
